A study of Rattus norvegicus with 16 samples.

Results

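Complement proteins, clotting factors and the serpins that hold proteases in check are mostly made by the liver, and their transcripts were compared between male obese Zucker rats fed soy protein isolate (SPI) and those fed casein (CAS). The genes described are those of the deposited table whose symbol belongs to the classical, lectin, alternative or terminal complement pathway, the clotting factors or the serpin family, together with Plg, Proc, Pros1, Klkb1, Kng1 and Ahsg, where the mean over all libraries was at least 5. Of 9645 genes in the table, 47 symbols matched and 45 reached that mean. C1qc (mean 5.88) lay just inside it, and those below it were Serpinb6 (mean 2.74) and Serpina1f (mean 0.128). Values are normalized counts: the reads of a gene in a library over the size factor the authors set for that library.

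The SPI-fed rats ate a diet whose protein was soy protein isolate with high isoflavones, and the CAS-fed control rats ate a diet whose protein was casein, so that soy protein and isoflavones cannot be told apart. All rats were males of the obese Zucker strain, bought at 6 weeks of age, caged alone and fed freely for 16 weeks after acclimation, and no lean rats were analysed here. There were 8 rats and 8 liver libraries per diet, SPI 1 to SPI 8 and CAS 1 to CAS 8, with 14901365 to 21632979 reads recovered per library. RNA came from whole liver tissue, so that fewer cells of a type and less RNA per cell cannot be told apart.

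Complement is a chain of plasma proteins in which antibody complexes, sugars on microbes or a slow spontaneous reaction lead to the splitting of C3 and then to a pore in the target membrane. Clotting is a similar chain of proteases that ends with thrombin, which turns fibrinogen into fibrin, while plasmin dissolves fibrin again. Serpins are proteins that trap a protease by a change of shape, and antithrombin and antiplasmin are among them. Some serpins carry hormones or help other proteins to fold instead. Hepatocytes secrete most of these proteins, while C1q comes mainly from macrophages.

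Each gene was tested with limma on 2 scales, since they differed in their account of these genes. The first is log2(value + 1) after quantile normalization, which gives every library the same set of values. The second is log2(value + 1) of the normalized counts as deposited, called the deposited scale. Very abundant genes keep little more than their rank on the first scale: C3 took 4 distinct values and Ahsg 3 over the 16 libraries there. A gene is called higher or lower at an adjusted p under 0.05 over the 8004 genes tested, which reached 10 or more normalized counts in 8 or more libraries.

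On the first principal component of all genes tested (19.1% of variance) the SPI libraries lay at 10.4 to 26.7, CAS 1, 2, 3, 5 and 8 at -41.3 to -26.1, and CAS 4, 6 and 7 between them at 1.18 to 2.73, nearer to the SPI libraries than to the other 5 CAS libraries. Alb, the defining hepatocyte transcript, was at 3306000 to 5252000 normalized counts in SPI-fed rats and at 2791000 to 4815000 in CAS-fed rats. Tf, a further hepatocyte marker, was at 1210000 to 1555000 in SPI-fed rats and 1315000 to 1757000 in CAS-fed rats. Apoa1 was at 48570 to 78360 in SPI-fed rats and 43190 to 118200 in CAS-fed rats. As deposited the log2 fold changes were 0.30 for Alb, -0.13 for Tf and 0.14 for Apoa1. Of 6 hepatocyte markers listed, these 3 were in the table, and 0 were called on either scale. Summed markers of Kupffer cells and macrophages (7 of 10 in the table, 0 called on either scale) were 3442 to 5964 in SPI-fed rats and 4130 to 7105 in CAS-fed rats.

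Few of the complement, clotting and serpin genes passed the test, and which ones passed depended on the scale. Of the 45 genes, 43 could be tested. On the quantile-normalized scale 2 fell in SPI-fed rats, C2 and C7, 0 rose and 41 did not pass. Over all genes tested 1.97% were called higher and 2.90% lower on that scale. On the deposited scale 4 genes rose (Kng1, Serpinc1, F10 and Serpina6), 1 fell (C7) and 38 did not pass, where 2.69% of all genes were called higher and 2.82% lower. The 4 that rose all had means of at least 10000 normalized counts. At that level 4 of 17 of these genes (23.5%) and 44 of 157 in the whole table (28.0%) were called higher as deposited, so that the share was near that of other abundant genes. Upper-quartile scaling, edgeR's quasi-likelihood test and DESeq2 also each called 4 of these genes higher, while the quantile-normalized fit called 0.

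The folds were small. The median log2 fold change (SPI over CAS) of the 43 genes was -0.01 on the quantile-normalized scale and 0.12 on the deposited scale, against 0.01 and -0.00 over all genes tested. A positive sign on both scales was found for 17 genes and a negative sign on both for 14. The other 12 genes were positive as deposited and not positive after quantile normalization. Among these 12, Ahsg had a quantile-normalized log2 fold change of -0.0, with the same set of values in both diets, and so no sign there. At an unadjusted p under 0.05 there were 7 higher and 10 lower on the quantile-normalized scale (39.5% of the 43, against 18.8% of all genes), and 14 higher and 4 lower on the deposited scale (41.9%, against 19.9% of all genes). With a mean of at least 10000 normalized counts the shares were 47.1% of these genes against 37.6% of all after quantile normalization. As deposited they were 41.2% against 51.6%. Below that level they were 34.6% against 18.45%, and as deposited 42.3% against 19.2%. The median SD within a diet was also smaller for these genes than over all genes, at 0.22 against 0.38 on the log2 scale in SPI-fed rats and 0.22 against 0.38 in CAS-fed rats. With a mean of at least 10000 normalized counts it was 0.127 against 0.159 in SPI-fed rats and 0.188 against 0.212 in CAS-fed rats.

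The turn of sign was more frequent among abundant genes and was not limited to them. It was counted in 9 of the 17 genes with a mean of at least 10000 normalized counts. These 9 take in Ahsg, which had no difference between the diets after quantile normalization and so no sign to turn. Below that level it was found in 3 of the 26, C1qb, F5 and Plg. No test of this difference was run. The 17 genes with a mean of at least 10000 normalized counts had a median log2 fold change of -0.13 after quantile normalization and 0.08 as deposited, and the 157 such genes of the whole table had -0.02 and 0.17. The 26 genes below that level had 0.05 and 0.13. The diets overlapped for every one of the 43 genes on both scales, where 0.825% of all genes did not overlap after quantile normalization and 0.900% as deposited. As deposited, all 8 SPI-fed rats lay above the CAS median for 8 genes (C8a, Cfi, F7, F10, F12, Kng1, Masp1 and Serpinc1) and below it for 3 (C7, Serpinb1a and Serpinf2), against 6.83% and 7.17% of all genes.

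**Figure D1:**
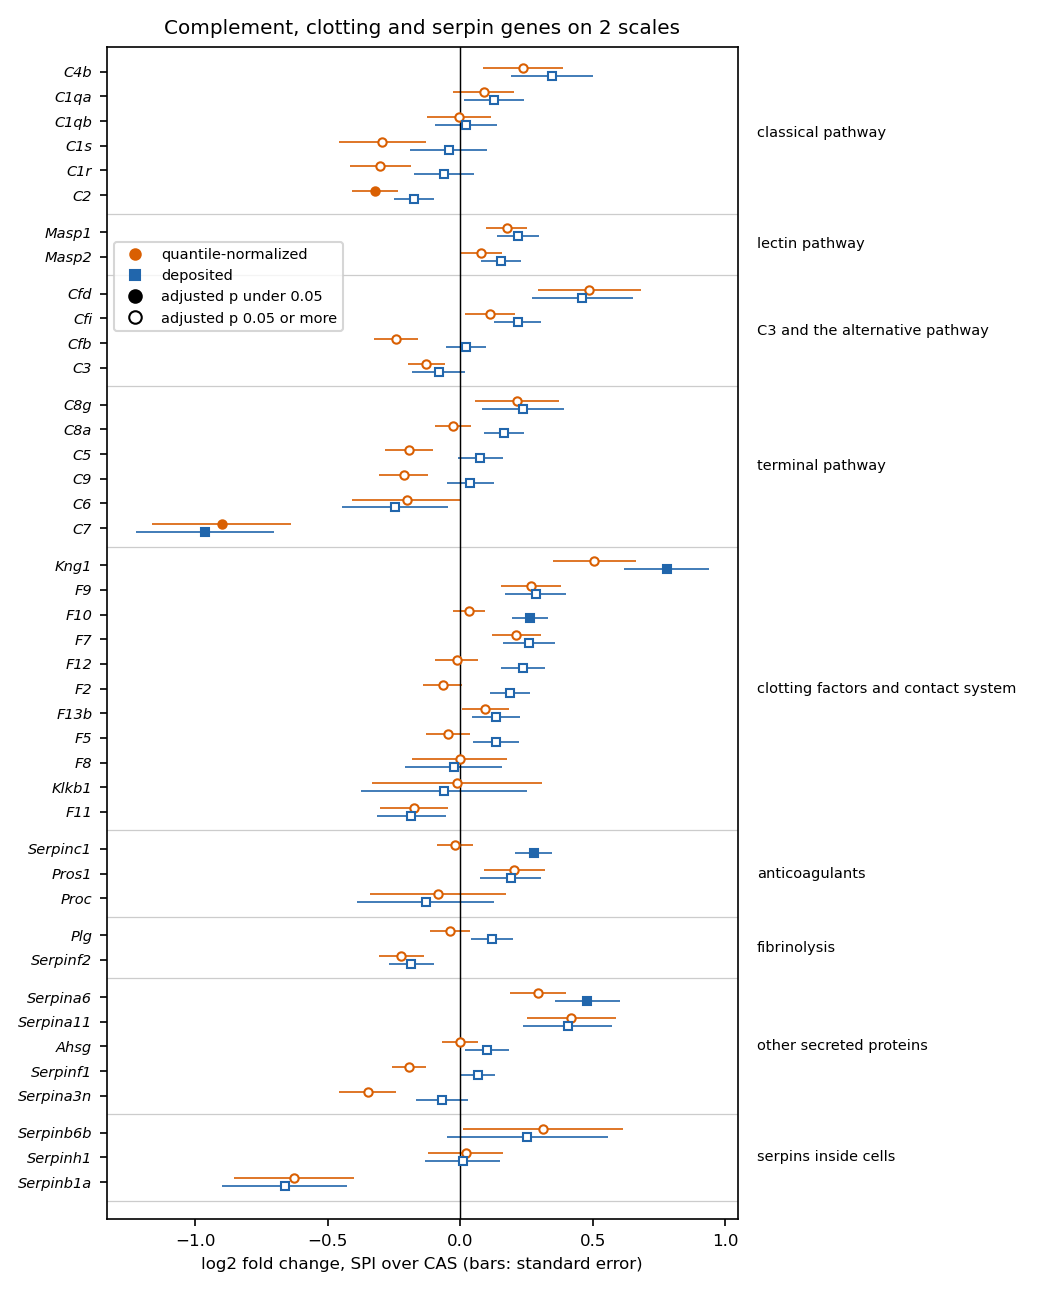
Log2 fold change of SPI over CAS for 42 of the 43 genes that could be tested, ordered by role, on the quantile-normalized scale (circles) and the deposited scale (squares), with bars of 1 standard error from limma. Filled marks passed an adjusted p of 0.05, which C7 did on both scales, C2 on the first only, and Kng1, Serpinc1, F10 and Serpina6 on the second only.

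In the classical pathway, C2 was called lower in SPI-fed rats after quantile normalization only, and the other genes did not pass. C2 provides the protease of the enzyme that splits C3 after antibody binding. Its lowest, median and highest normalized counts were 4385, 4818 and 5339 in SPI-fed rats, against 4774, 5261 and 6445 in CAS-fed rats. The highest were CAS 2 (6445) and CAS 8 (6374), and 4 of the 8 CAS libraries lay inside the SPI range. The log2 fold change was -0.32 (standard error 0.08, limma adjusted p = 0.0299) after quantile normalization and -0.18 (limma, adjusted p = 0.201) as deposited. When each library was left out in turn the adjusted p for C2 from limma ran from 0.0143 to 0.0665 and the call was kept in 7 of 16 fits, those without SPI 1, 4 or 7 or CAS 1, 4, 6 or 7. A replicate block (same-numbered rats of the 2 diets, which share a lane code) gave an adjusted p of 0.0883. C2 was also not called with upper-quartile scaling (limma, adjusted p = 0.249), edgeR (adjusted p = 0.206) or DESeq2 (adjusted p = 0.166). Without numbers 2 and 8 of each diet the adjusted p from limma was 0.241.

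C1r and C1s are the proteases of the C1 complex, and C1r switches C1s on. C1r had 14320, 18870 and 26520 normalized counts (lowest, median, highest) in SPI-fed rats and 14630, 21100 and 23320 in CAS-fed rats, which gave a log2 fold change of -0.30 (limma, adjusted p = 0.147) after quantile normalization and -0.06 (adjusted p = 0.804) as deposited. C1s had 13230, 16410 and 23550 normalized counts in SPI-fed rats and 10540, 17580 and 24150 in CAS-fed rats, and its call did not pass either. Over the rats of a diet, the pair moved together: Pearson's r of the quantile-normalized values was 0.984 in SPI-fed rats (exact permutation p = 9.92e-05, 0.000992 adjusted over 10 relations) and 0.961 in CAS-fed rats (exact permutation p = 0.000223, adjusted 0.00112). Spearman's rho was 0.958 (exact permutation p = 0.000694, adjusted 0.0057) in SPI-fed rats and 0.952 (exact permutation p = 0.00114, adjusted 0.0057) in CAS-fed rats. Without the 2 libraries farthest from the median of C1r, r was 0.941 in SPI-fed rats and 0.859 in CAS-fed rats. In the RefSeq annotation of assembly GRCr8 the genes are direct neighbours, and whether reads of one were counted for the other was not tested.

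**Figure D2:**
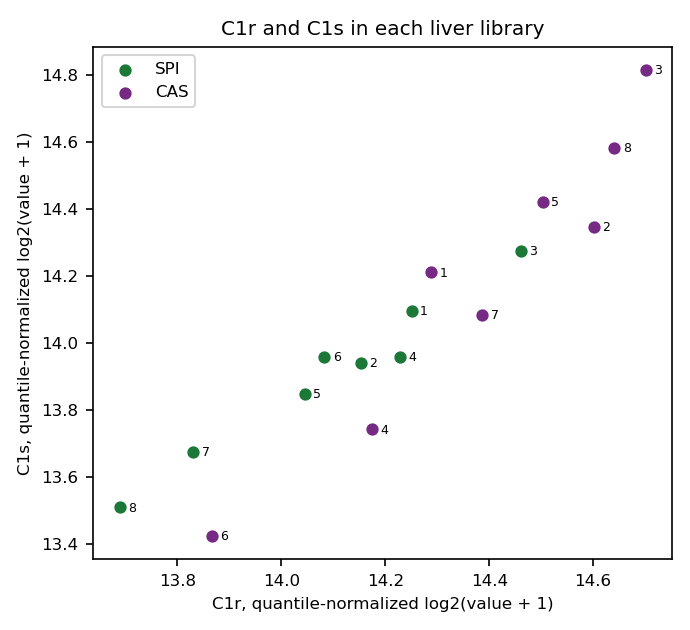
Quantile-normalized log2(value + 1) of C1r (horizontal axis) and C1s (vertical axis) in each of the 8 SPI and 8 CAS libraries, numbered as in the text. Both diets lie along a rising line, with SPI 8 and CAS 6 at the low end and SPI 3 and CAS 3 at the high end of their diets.

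C1q, the part of C1 that binds antibody, did not differ beyond its spread. C1qa had 915.8, 1485 and 1646 normalized counts in SPI-fed rats and 1089, 1215 and 1510 in CAS-fed rats. C1qb had 754.5, 1092 and 1210 in SPI-fed rats and 767.4, 1019 and 1311 in CAS-fed rats, and the log2 fold changes of C1qa and C1qb lay between -0.01 and 0.13 on the 2 scales. C1qc, listed at 0 to 16.0 normalized counts in SPI-fed rats and 1.02 to 10.9 in CAS-fed rats, was too low to be tested. C1qa and C1qb had an r of 0.759 in SPI-fed rats (exact permutation p = 0.0257, adjusted 0.0857) and 0.441 in CAS-fed rats (exact permutation p = 0.272, adjusted 0.418), and with Spearman's rho 0.548 (exact permutation p = 0.171, adjusted 0.342) and 0.381 (exact permutation p = 0.36, adjusted 0.514). Without the 2 libraries farthest from the median of C1qa, r was 0.612 in SPI-fed rats and 0.592 in CAS-fed rats. C4b, which forms the platform of the classical enzyme, had 2800, 3913 and 5512 normalized counts in SPI-fed rats and 2469, 2906 and 4133 in CAS-fed rats, which gave a log2 fold change of 0.35 (limma, adjusted p = 0.22) as deposited. Rats may carry near-identical C4 genes, so that its reads are uncertain.

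The proteases of the lectin pathway, which act when sugars on a surface are bound, did not pass on either scale. Masp1 had 1221, 1346 and 1507 normalized counts in SPI-fed rats, against 997.3, 1160 and 1337 in CAS-fed rats. All 8 SPI-fed rats lay above the CAS median, yet the log2 fold change was 0.18 (limma, adjusted p = 0.22) after quantile normalization and 0.22 (limma, adjusted p = 0.105) as deposited. Masp2, which splits C4 and C2, had 2276, 2496 and 2848 normalized counts in SPI-fed rats and 1834, 2344 and 2436 in CAS-fed rats, which gave a log2 fold change of 0.15 (limma, adjusted p = 0.268) as deposited.

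Of the alternative pathway, C3, Cfb, Cfd and Cfi did not pass on either scale. C3, the protein on which all pathways meet, had 323100, 350000 and 464500 normalized counts in SPI-fed rats and 297000, 409100 and 468800 in CAS-fed rats. The range of the SPI-fed rats lay within that of the CAS-fed rats, and the log2 fold change was -0.13 (limma, adjusted p = 0.328) after quantile normalization and -0.08 (limma, adjusted p = 0.7) as deposited. Cfb, the protease of the alternative C3-splitting enzyme, had 61890, 65500 and 79840 normalized counts in SPI-fed rats and 59630, 65740 and 79960 in CAS-fed rats. Its log2 fold change was -0.24 (limma, adjusted p = 0.0969) after quantile normalization and 0.02 (limma, adjusted p = 0.913) as deposited, so that its direction was not settled. Cfd, which splits factor B and is also made by fat cells, had 262.4, 406.6 and 485.5 normalized counts in SPI-fed rats and 169.1, 286.6 and 510.6 in CAS-fed rats. CAS 4 held its highest value, and without CAS 4 Cfd passed on both scales (adjusted p = 0.0421 and 0.0454 from limma), against 0.168 and 0.178 with all 16 libraries. The fat cell marker Adipoq was listed at 1.00 to 55.0 normalized counts in SPI-fed rats and 0 to 38.6 in CAS-fed rats, and its part in the Cfd values was not tested.

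An inhibitor of the pathway also overlapped between the diets. Cfi, which cuts up C3b and C4b, had 3599, 4151 and 5221 normalized counts in SPI-fed rats and 3186, 3506 and 4512 in CAS-fed rats (log2 fold change 0.22 as deposited, limma adjusted p = 0.175). C3 and Cfb had an r of 0.881 in SPI-fed rats (exact permutation p = 0.00446, adjusted 0.0149) and 0.783 in CAS-fed rats (exact permutation p = 0.0173, adjusted 0.0432) as deposited, and with Spearman's rho 0.762 (exact permutation p = 0.0368, adjusted 0.0919) and 0.952 (exact permutation p = 0.00114, adjusted 0.00744). After quantile normalization r was 0.512 in SPI-fed rats and 0.593 in CAS-fed rats, which did not pass. Without the 2 libraries farthest from the median of C3, the r of the deposited values was 0.467 in SPI-fed rats, so that the relation there rested on those libraries, and 0.704 in CAS-fed rats.

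In the terminal pathway C7 was lower in SPI-fed rats on both scales. C7 joins the complex of C5b and C6 and anchors it in the membrane before the pore forms. It had 17.9, 30.1 and 45.9 normalized counts in SPI-fed rats (lowest, median, highest), against 33.1, 53.2 and 103.7 in CAS-fed rats. CAS 8 (33.1) and CAS 4 (42.7) lay inside the SPI range, the other 6 CAS libraries lay above it, and all 8 SPI libraries lay below the CAS median. The log2 fold change was -0.90 (standard error 0.26, limma adjusted p = 0.0487) after quantile normalization and -0.97 (standard error 0.26, limma adjusted p = 0.0321) as deposited. When each library was left out in turn, the call of C7 was kept in 3 of 16 fits on the quantile-normalized scale (adjusted p 0.0288 to 0.105 from limma; without SPI 7, CAS 4 or CAS 8) and in 10 of 16 on the deposited scale (0.0184 to 0.0728; lost without SPI 1, 4 or 5 or CAS 1, 3 or 5). A replicate block gave adjusted p-values of 0.119 and 0.0896 on the 2 scales. Without numbers 2 and 8 of each diet the adjusted p-values from limma were 0.0765 and 0.0547.

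C7 was a low transcript beside the other terminal genes, and markers of stellate cells and fibroblasts also had negative fold changes. All 5 of those markers that could be tested (of 6 in the table and 9 listed) had a negative log2 fold change, with a median of -0.81 on each scale, and 0 passed (3 lower at an unadjusted p under 0.05 after quantile normalization and 2 as deposited, by limma). Their sum was 3120, 3740 and 5432 normalized counts in SPI-fed rats and 3661, 5167 and 5650 in CAS-fed rats, most of it from Col3a1. The defining markers Des (5.50 to 92.9 in SPI-fed rats, 34.5 to 80.7 in CAS-fed rats) and Lrat (13.02 to 50.0 in SPI-fed rats, 31.8 to 55.6 in CAS-fed rats) were low in both diets, and their part in the C7 difference was not tested. C6, its partner in the membrane complex, had 56.6, 90.6 and 148.0 normalized counts in SPI-fed rats and 77.5, 103.9 and 188.4 in CAS-fed rats, which gave a log2 fold change of -0.20 (limma, adjusted p = 0.641) after quantile normalization.

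The pore-forming components C8 and C9, and C5, which starts the terminal pathway, did not pass. C9 had 41000, 47040 and 51980 normalized counts in SPI-fed rats and 38660, 43600 and 56380 in CAS-fed rats, which gave a log2 fold change of -0.21 (limma, adjusted p = 0.209) after quantile normalization and 0.04 (limma, adjusted p = 0.86) as deposited. C5 had 18880, 21420 and 25400 in SPI-fed rats and 16790, 20400 and 24810 in CAS-fed rats. C8a, the alpha chain of C8, had 14180, 15820 and 17550 in SPI-fed rats and 12100, 14000 and 16190 in CAS-fed rats. All 8 SPI-fed rats lay above the CAS median of C8a, but its log2 fold change was -0.03 after quantile normalization and 0.17 (limma, adjusted p = 0.221) as deposited. The chains C8a and C8g had no relation over rats that passed the test, with an r of -0.378 in SPI-fed rats (exact permutation p = 0.347, adjusted 0.434) and -0.43 in CAS-fed rats (exact permutation p = 0.292, adjusted 0.418), and a Spearman's rho of -0.335 (exact permutation p = 0.414, adjusted 0.517) and -0.455 (exact permutation p = 0.26, adjusted 0.433). Without the 2 libraries farthest from the median of C8a, r was -0.579 in SPI-fed rats and -0.606 in CAS-fed rats.

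Among the 11 clotting factors and contact system genes, Kng1 and F10 rose in SPI-fed rats on the deposited scale, 0 rose after quantile normalization (3 at an unadjusted p under 0.05), and none fell on either scale. Kng1 encodes kininogen, the precursor of bradykinin and a cofactor of the contact system that starts clotting on surfaces. Its lowest, median and highest normalized counts were 35500, 54690 and 112400 in SPI-fed rats, against 27390, 33110 and 40230 in CAS-fed rats. SPI 3 held the highest value and SPI 7 the lowest of the SPI-fed rats, and SPI 7 alone lay inside the CAS range. Limma gave a log2 fold change of 0.51 (standard error 0.16, limma adjusted p = 0.0738) after quantile normalization and 0.78 (standard error 0.16, limma adjusted p = 0.00748) as deposited. On the deposited scale the call was kept in 16 of 16 fits that left out a library (adjusted p 0.00125 to 0.0189 from limma) and with the replicate block (0.0114), but not when numbers 2 and 8 of each diet were left out (0.0658).

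Rats have several kininogen genes of similar sequence, and reads may be shared between them. Kng1l1, listed as a further kininogen gene, had 47580, 68580 and 122500 normalized counts in SPI-fed rats and 34490, 45300 and 51900 in CAS-fed rats, which gave a log2 fold change of 0.64 (limma, adjusted p = 0.0106) as deposited. SPI 3 was the highest and SPI 7 the lowest SPI library for Kng1l1 too, as for Kng1, and the share of common reads was not tested.

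F10 encodes factor X, which with factor V turns prothrombin into thrombin. It had 17430, 18460 and 21530 normalized counts in SPI-fed rats, against 14390, 15620 and 17740 in CAS-fed rats. Only CAS 8 (17740) reached into the SPI range. The log2 fold change was 0.26 (standard error 0.07, limma adjusted p = 0.0235) as deposited and 0.03 (standard error 0.06, limma adjusted p = 0.815) after quantile normalization. The deposited call was kept in 15 of 16 fits that left out a library and was lost without CAS 2, at an adjusted p of 0.0532 from limma, and with the replicate block it was 0.0764. Without numbers 2 and 8 of each diet the adjusted p from limma was 0.0658 on that scale.

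The other clotting factors had the same sign on the deposited scale in most cases and did not pass. F2, prothrombin, had 67640, 78650 and 91280 normalized counts in SPI-fed rats and 59180, 71320 and 75890 in CAS-fed rats (log2 fold change 0.19, limma adjusted p = 0.156). F7, which starts clotting together with tissue factor, had 1368, 1540 and 2275 in SPI-fed rats and 1134, 1365 and 1512 in CAS-fed rats (0.26, adjusted p = 0.132). F12, the first protease of the contact system, had 24050, 26470 and 29930 in SPI-fed rats and 17870, 23270 and 25570 in CAS-fed rats (0.24, adjusted p = 0.0941). After quantile normalization the log2 fold change was -0.07 for F2, -0.01 for F12 and 0.21 for F7. These did not pass either (limma, adjusted p = 0.67, 0.947 and 0.22). As deposited, all 8 SPI-fed rats lay above the CAS median for F7 and F12, with some overlap of the ranges. F9, which activates factor X together with factor VIII, had 771.3, 1027 and 1420 normalized counts in SPI-fed rats and 630.0, 862.5 and 1054 in CAS-fed rats, which gave a log2 fold change of 0.27 (limma, adjusted p = 0.192) after quantile normalization and 0.28 (adjusted p = 0.17) as deposited.

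After quantile normalization 5 of the 11 had a positive log2 fold change and 6 a negative one, with a median of -0.002. As deposited the log2 fold change was positive for 3954 of all 8004 genes tested. It was positive for 122 of the 157 genes with a mean of at least 10000 normalized counts, whose median was 0.17. On the deposited scale 8 of the 11 had a positive log2 fold change, with a median of 0.19. The 3 with a negative one were F11 (-0.18), F8 (-0.03) and Klkb1 (-0.06), of which F8 encodes the cofactor of factor IX, and F11 and Klkb1, direct neighbours in GRCr8, encode proteases of the contact system. F11 had 360.4, 455.0 and 767.5 normalized counts in SPI-fed rats and 463.8, 529.4 and 664.8 in CAS-fed rats, the SPI range taking in all 8 CAS libraries. F5, the cofactor that works with factor X, and F13b, the carrier chain of the fibrin cross-linking enzyme, had log2 fold changes of 0.13 and 0.14 as deposited. After quantile normalization F5 had -0.05 and F13b 0.09. The relation of F5 and F10 over rats did not pass the test (r = -0.0366 in SPI-fed rats and -0.124 in CAS-fed rats after quantile normalization, exact permutation p = 0.939 and 0.81, adjusted 0.939 and 0.899; Spearman's rho 0.12 and 0.0687, exact permutation p = 0.78 and 0.869, adjusted 0.867 and 0.869). As deposited r was 0.173 in SPI-fed rats and -0.405 in CAS-fed rats (exact permutation p = 0.682 and 0.315, adjusted 0.682 and 0.436). Without the 2 libraries farthest from the median of F5, r was 0.636 in SPI-fed rats and -0.221 in CAS-fed rats after quantile normalization, and 0.890 and -0.695 as deposited, so that its sign in SPI-fed rats turned with the libraries and the scale.

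**Figure D3:**
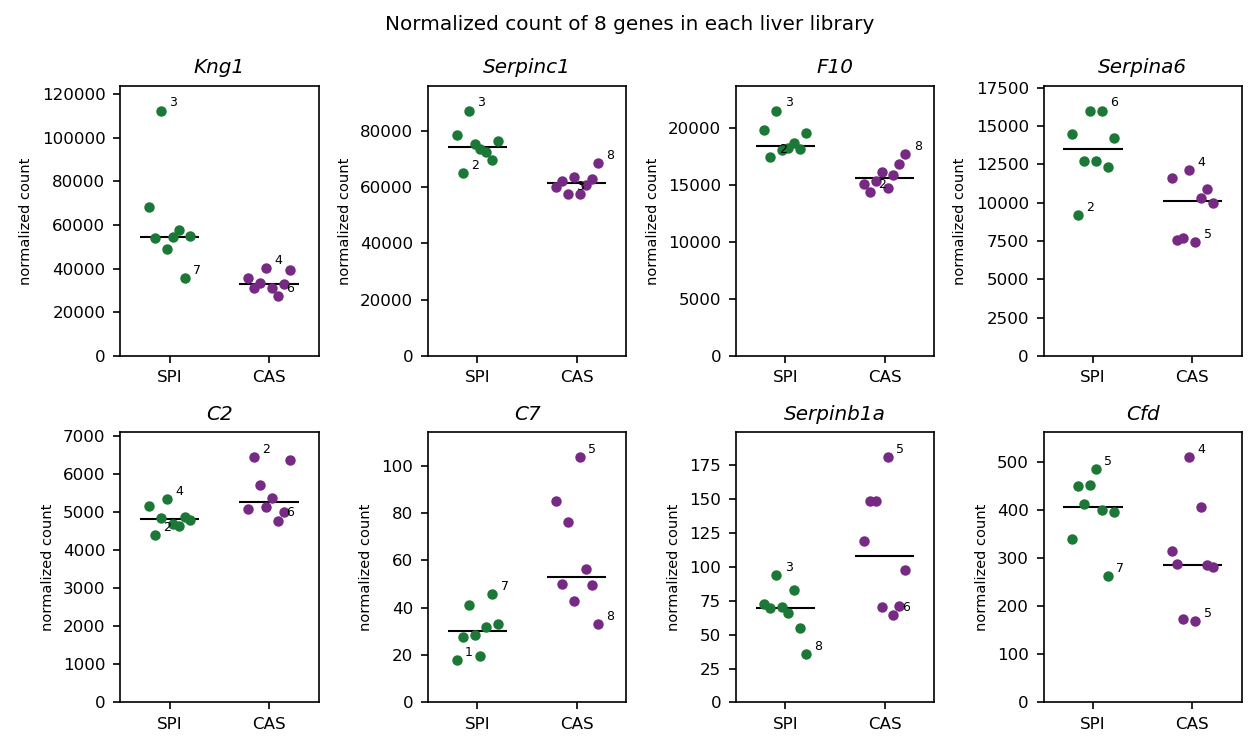
Normalized counts of 8 genes in the 8 SPI (left) and 8 CAS (right) libraries of each panel, with a line at the median and the number of the highest and lowest library. Every pair of ranges overlaps: SPI 7 reaches into the CAS range of Kng1, CAS 8 into the SPI range of F10, and CAS 4 holds the highest value of Cfd.

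Of the anticoagulants, Serpinc1 rose on the deposited scale. Serpinc1 encodes antithrombin, the serpin that inhibits thrombin and activated factor X. It had 64960, 74410 and 87260 normalized counts in SPI-fed rats, against 57450, 61490 and 68520 in CAS-fed rats. SPI 2 was the only SPI library inside the CAS range and CAS 8 the only CAS library inside the SPI range. Its log2 fold change was 0.28 (standard error 0.07, limma adjusted p = 0.0185) as deposited and -0.02 (standard error 0.07, limma adjusted p = 0.901) after quantile normalization. The deposited call was kept in 16 of 16 fits that left out a library (adjusted p 0.0124 to 0.0413 from limma) and when numbers 2 and 8 of each diet were left out (0.0349), but not with the replicate block (0.0754).

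Protein C and protein S, which together switch off the cofactors of clotting, did not pass. Proc had 52.0, 78.8 and 186.8 normalized counts in SPI-fed rats and 54.9, 94.2 and 136.5 in CAS-fed rats (log2 fold change -0.08 after quantile normalization, standard error 0.26). Pros1 had 359.2, 415.4 and 590.3 in SPI-fed rats and 277.8, 376.7 and 462.7 in CAS-fed rats (0.20, limma adjusted p = 0.34). The spread of Proc over rats was wide, with an SD of 0.56 on the log2 scale in each diet, so that a change of the size seen in Serpinc1 was not detectable for it.

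In fibrinolysis, Plg and Serpinf2 were tested, and neither passed. Plg, the precursor of plasmin, had 5210, 6025 and 6904 normalized counts in SPI-fed rats and 5082, 5237 and 6368 in CAS-fed rats, which gave a log2 fold change of -0.04 after quantile normalization and 0.12 (limma, adjusted p = 0.421) as deposited. Serpinf2, which encodes antiplasmin, had 1378, 1698 and 1816 in SPI-fed rats and 1599, 1876 and 2067 in CAS-fed rats. All 8 SPI-fed rats lay below the CAS median of Serpinf2, and its log2 fold change was -0.22 (standard error 0.09, limma adjusted p = 0.14) after quantile normalization and -0.18 (limma, adjusted p = 0.226) as deposited.

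Among the other secreted proteins, Serpina6 rose on the deposited scale. Serpina6 encodes corticosteroid-binding globulin, a serpin that carries glucocorticoids in blood and inhibits no protease. It had 9195, 13480 and 16000 normalized counts in SPI-fed rats, against 7409, 10120 and 12140 in CAS-fed rats. SPI 2 was the lowest SPI library and the only one inside the CAS range. Over CAS, the log2 fold change was 0.48 (standard error 0.12, limma adjusted p = 0.024) as deposited and 0.29 (standard error 0.11, limma adjusted p = 0.121) after quantile normalization. The deposited call was kept in 11 of 16 fits that left out a library (adjusted p 0.00713 to 0.0572 from limma; lost without SPI 4 or 6 or CAS 2, 3 or 5), with the replicate block (0.00885) and when numbers 2 and 8 of each diet were left out (0.0446).

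Serpina3n, a protease inhibitor of the acute phase, and Serpinf1, a serpin that acts on blood vessel growth rather than on proteases, differed in sign or size between the scales. Serpina3n had 48860, 56850 and 71270 normalized counts in SPI-fed rats and 47910, 60710 and 75600 in CAS-fed rats. Its log2 fold change was -0.35 (limma, adjusted p = 0.0681) after quantile normalization and -0.07 (limma, adjusted p = 0.746) as deposited, and its reads may be shared with near-identical family members. Serpinf1 had 23560, 26700 and 29170 in SPI-fed rats and 23790, 25600 and 27020 in CAS-fed rats, the SPI range taking in all 8 CAS libraries and with a log2 fold change of -0.19 (limma, adjusted p = 0.0887) and 0.07 (limma, adjusted p = 0.604). Ahsg, which encodes fetuin A, a carrier of calcium phosphate in plasma, had 158300, 195200 and 212000 in SPI-fed rats and 146400, 185600 and 200600 in CAS-fed rats. Serpina11 had 337.3, 439.7 and 628.1 in SPI-fed rats and 212.8, 370.8 and 490.7 in CAS-fed rats, which gave a log2 fold change of 0.42 (limma, adjusted p = 0.165) after quantile normalization.

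The serpins that act inside cells did not pass with limma. Serpinb1a, an inhibitor of neutrophil elastase that is abundant in myeloid cells, had 35.7, 70.0 and 94.2 normalized counts in SPI-fed rats, against 64.5, 108.1 and 181.0 in CAS-fed rats. CAS 4, 6 and 7 (64.5 to 71.2) lay inside the SPI range and the other 5 CAS libraries above it. The log2 fold change was -0.63 (standard error 0.23, limma adjusted p = 0.118) after quantile normalization and -0.66 (adjusted p = 0.104) as deposited, and only DESeq2 called it, at an adjusted p of 0.0376. Serpinb6b had 32.1, 45.2 and 85.0 in SPI-fed rats and 21.9, 37.0 and 94.5 in CAS-fed rats, and Serpinh1, the collagen chaperone of the endoplasmic reticulum, 194.3, 275.4 and 403.3 in SPI-fed rats and 224.6, 263.7 and 382.7 in CAS-fed rats. Of the 7 macrophage markers tested, 6 had a negative log2 fold change after quantile normalization and 5 as deposited, with medians of -0.31 and -0.29 and 0 called. Cd163 was positive on both scales (0.98, limma adjusted p = 0.0616, and 0.95, adjusted p = 0.0795). The sum of the markers had medians of 5608 in SPI-fed rats and 5537 in CAS-fed rats, most of it from Clec4f. The part of these markers in the Serpinb1a values was not tested.

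As a share of each library, the 45 genes took 5.65 to 6.75% of all normalized counts in SPI-fed rats (median 6.10%) and 5.86 to 7.40% in CAS-fed rats (median 6.67%). C3 alone took 1.66 to 2.22% (median 1.92%) in SPI-fed rats and 1.67 to 2.84% (median 2.33%) in CAS-fed rats. The clotting and contact genes took 0.878 to 1.24% (median 0.986%) in SPI-fed rats and 0.820 to 0.943% (median 0.856%) in CAS-fed rats, so that the C3 share and the clotting share lay in opposite order by their medians, with overlapping ranges. A share also moves with the most abundant transcript, Alb, whose median was 4331000 normalized counts in SPI-fed rats and 3314000 in CAS-fed rats. Within the SPI-fed rats, SPI 3 held the highest deposited value of 17 of the 43 genes and SPI 2 the lowest of 13.

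**Figure D4:**
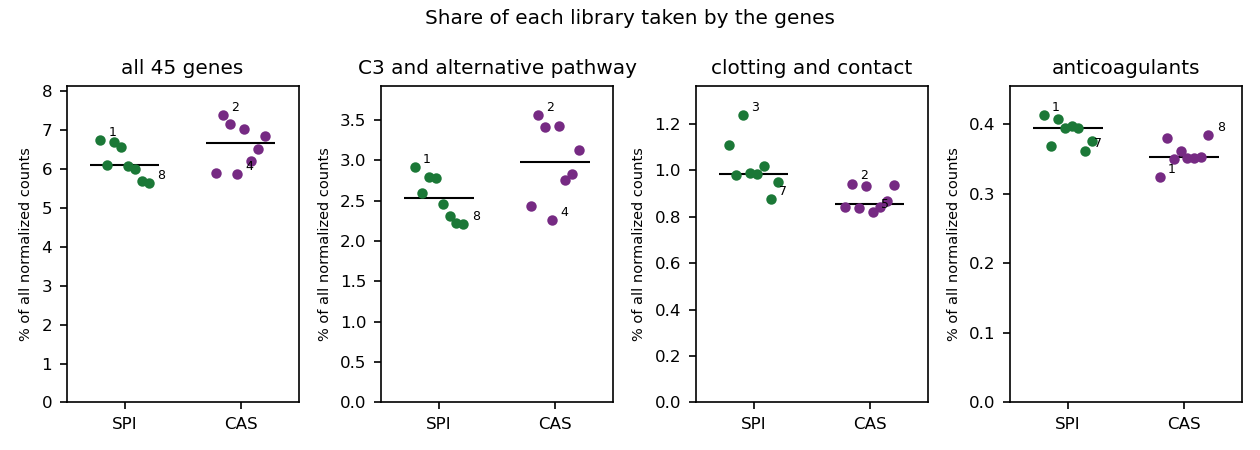
Share of all normalized counts (%) taken by all 45 genes, by C3 and the alternative pathway, by the clotting and contact genes and by the anticoagulants in the 8 SPI (left) and 8 CAS (right) libraries, with a line at the median and the number of the highest and lowest library. The median is lower in SPI for all 45 genes (6.10% against 6.67%) and higher for clotting and contact genes (0.986% against 0.856%), and the ranges overlap in every panel.

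Among genes that work beside these in clotting, complement and the acute phase, some passed on both scales and others on 1 only. Of 16 further clotting and fibrinolysis genes tested, 1 rose after quantile normalization and 5 as deposited, and 0 fell on either scale. Over all genes tested 1.97% were called higher and 2.90% lower after quantile normalization, and 2.69% and 2.82% as deposited. Of all genes with a mean of at least 10000 normalized counts, 28.0% were called higher as deposited. Fgg, the gamma chain of fibrinogen, had 4398, 5291 and 5825 normalized counts in SPI-fed rats and 3108, 3966 and 4637 in CAS-fed rats, and rose on both scales (log2 fold change 0.30, limma adjusted p = 0.0367, and 0.41, adjusted p = 0.00797). The other 4 that rose as deposited were Fga, the alpha chain (0.35, adjusted p = 0.0442), Fgl1, a fibrinogen-like protein (0.65, adjusted p = 0.00952), Apoh, a phospholipid-binding plasma protein (0.41, adjusted p = 0.00466), and Kng1l1, given above. Fgl1, Apoh and Kng1l1 had more than 10000 normalized counts in every library. The beta chain Fgb had 1177, 1987 and 3268 normalized counts in SPI-fed rats and 1148, 1734 and 2717 in CAS-fed rats and did not pass.

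Of 17 complement recognition, regulator and receptor genes tested, 0 passed after quantile normalization (6 higher and 1 lower at an unadjusted p under 0.05, where 18.8% of all genes stood) and 2 rose as deposited, Vtn, which encodes vitronectin, an inhibitor of the pore (0.34, limma adjusted p = 0.0126), and Crp, which encodes a pentraxin (0.35, adjusted p = 0.0289). Vtn and Crp had more than 10000 normalized counts in every library, a level where 28.0% of all genes were called higher as deposited. The 3 with the smallest p after quantile normalization were Cfp, the gene of properdin (0.29, adjusted p = 0.13), Colec10 (0.40, adjusted p = 0.15), a collectin of the lectin pathway, and Vsig4, a complement receptor of Kupffer cells (0.30, adjusted p = 0.18). Of 11 other protease inhibitors of plasma, Mug2, a murinoglobulin of the alpha-2-macroglobulin family with similar copies, fell after quantile normalization (-0.34, adjusted p = 0.0323) and did not pass as deposited (-0.13, adjusted p = 0.42). Of 12 acute phase genes, Lbp, which binds bacterial lipopolysaccharide, fell on both scales (-1.23, adjusted p = 0.0429, and -1.10, adjusted p = 0.0437), and Apcs, a pentraxin, rose as deposited (0.38, adjusted p = 0.0182). Apcs too had more than 10000 normalized counts in every library. Lcn2, an acute phase lipocalin, had 50.0, 80.8 and 369.6 normalized counts in SPI-fed rats and 109.8, 568.6 and 2147 in CAS-fed rats and did not pass (adjusted p = 0.0731 after quantile normalization).

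The sequences upstream of Kng1, Serpinc1 and F10 are shown because they are the genes called on the deposited scale that had an entry in the reference table. The others called there were C7 and Serpina6. They are the 250 bases before the annotated start in RefSeq's annotation of assembly GRCr8, a later build than the Rnor_6.0 of the deposited table, written 5′ to 3′ on the strand of the gene with a C/EBP motif, where one stood, in capitals. C/EBP proteins are transcription factors of hepatocytes. The motif searched was TTGCNNAA on either strand.
Kng1, chr11:91340149-91340398, minus strand: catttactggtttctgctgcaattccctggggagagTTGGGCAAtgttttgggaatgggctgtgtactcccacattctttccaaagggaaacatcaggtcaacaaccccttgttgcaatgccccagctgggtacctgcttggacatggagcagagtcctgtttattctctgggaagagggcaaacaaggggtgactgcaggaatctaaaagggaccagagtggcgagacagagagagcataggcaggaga
Serpinc1, chr13:75790308-75790557, plus strand: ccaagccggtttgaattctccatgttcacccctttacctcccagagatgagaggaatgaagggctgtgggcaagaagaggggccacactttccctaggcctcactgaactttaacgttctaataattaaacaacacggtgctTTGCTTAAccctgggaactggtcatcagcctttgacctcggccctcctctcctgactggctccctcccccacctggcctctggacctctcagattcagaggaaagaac
F10, chr16:83190281-83190530, minus strand: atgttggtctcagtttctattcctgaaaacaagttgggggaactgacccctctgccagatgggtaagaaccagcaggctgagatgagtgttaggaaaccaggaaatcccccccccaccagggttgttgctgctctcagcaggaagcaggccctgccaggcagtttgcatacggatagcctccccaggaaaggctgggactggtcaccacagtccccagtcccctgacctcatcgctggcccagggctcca

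Of the 45 genes, 33 had an entry among the 33469 promoters of the reference table, each running from 250 bases before the start to 50 after it. The C/EBP motif stood in 9 of the 33 (27.3%) and in 10.6% of all promoters, Kng1 and Serpinc1 among the 9. The STAT motif TTCNNNGAA, read by factors of the acute phase, stood in 6 of 33 (18.2%), against 8.87% of all promoters, the 6 being C1qa, C8a, F9, Pros1, Serpina11 and Serpina3n. The HNF1 motif GTTAATNAT stood in the promoters of C5, F13b and Plg (9.09%, against 0.747% of all promoters), and the HNF4 motif CAAAGTCCA in 0 of 33 (0.391% of all promoters). The motifs were searched on both strands, and a match is a description of the sequence only.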

How the data were processed

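RNA of 16 livers was sequenced, with 8 rats on each diet and a library for each rat. The deposited signal values are read counts per gene divided by the authors by a size factor per library, as DESeq2 gives. The log2, score and p-value columns hold the authors' own comparison of the diets from DESeq2 and were not used. The submitters' processing notes name FastQC, DESeq2 and the build Rnor_6.0, and the study's methods give CLC Genomics Workbench, RPM and an older assembly instead.

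The 8004 genes that reached 10 in 8 or more libraries were tested with limma 3.58.1 (trend and robust, two-sided, Benjamini-Hochberg) in R 4.3.3 on log2(value + 1), with and without quantile normalization. Whole reads recovered from the signal (100% of values whole within 0.05) were tested with edgeR 4.0.16 and DESeq2 1.42.0. The other alternatives were a replicate block, upper-quartile scaling, no filter or a filter at 50, pseudocounts of 0.5 and 8, omitting each library, and omitting those numbered 2 and 8 (the sheet code or lane code in their labels is out of sequence). The limma fit on the quantile-normalized scale was tested on simulated data with known folds, and the other fits were not. The depth of 14901365 to 21632979 reads limits how precisely low genes were measured.

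Same-numbered libraries share a lane code in the labels (numbers 2 and 7 share lane 7), which is why they were paired in the block. The block was by number and not by lane, so that numbers 2 and 7 were kept apart. A fit with the block also estimates more terms from the same 16 libraries. Deviations of same-numbered libraries from the diet means had correlations of -0.095 to 0.0682, and 0 of 8 correlated best with its own number. In the fits without a block, p-values set the difference between the diets against the spread between rats. P-values of the correlations come from permuted pairings of the rats of a diet.

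The genes, gene lists and tests were chosen with earlier results of these data known. Genes were named by a rule: those called on either scale, the 2 with the smallest p of each role, those below the filter, and up to 3 of each neighbouring list, the others by range. Values of some of the genes are not reported here. Deposited-scale fits without a library or with the block were chosen after seeing the data.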

Additional observations from a re-analysis of the deposited data

Results flagged for a closer look

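In 1 of 42 groups looked at (21 genes in each diet), a library lay far from the others of its diet on the quantile-normalized scale. This was F10 in CAS 8, the highest CAS library, whose gap to the next was 0.806 of the range of the CAS-fed rats. Chance alone marks about 1 in 20 groups at this limit. On that scale 5 of the CAS libraries had the same F10 value. As deposited the gap was 0.248 of the range on the log2 scale, below the limit. CAS 8 held 17740 normalized counts of F10, and the next was CAS 7 at 16840. Without CAS 8, the F10 call on the deposited scale was kept.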

How the results depend on the processing

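On the quantile-normalized scale 0 genes rose and 2 fell. Values as deposited, upper-quartile scaling and edgeR each gave 4 higher and 1 lower (C7), and DESeq2 4 higher and 2 lower (C7 and Serpinb1a). No filter and a filter at 50 each gave 0 higher and 1 lower (C2). Without a filter C7 had an adjusted p of 0.05415 from limma, and with the filter at 50 it was not tested. The replicate block gave 0 and 0, as did leaving out the libraries numbered 2 and 8. Leaving out each library gave 0 to 1 higher (Kng1 without SPI 7, Cfd without CAS 4) and 0 to 4 lower, the 4 without CAS 4 being C2, C7, Cfb (-0.28) and Serpina3n (-0.41). C1r (-0.38) was also called without CAS 6, and Serpina3n without CAS 6 (-0.40) or CAS 7 (-0.38). On the deposited scale, with 4 higher and 1 lower, the replicate block gave 2 and 0, leaving out numbers 2 and 8 gave 3 (C4b, Serpina6 and Serpinc1) and 0, and leaving out each library 2 to 5 and 0 to 1. With all libraries the diets overlapped for every gene tested under each scale and filter, and after quantile normalization also with each library left out. As deposited, leaving out each library gave 0 to 3 genes that did not overlap (F10, Serpina6 and Serpinc1 without SPI 2, Kng1 without SPI 7, F10 and Serpinc1 without CAS 8), and leaving out numbers 2 and 8 gave 4 (F2, F10, Serpina6 and Serpinc1).

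Signs turned from the quantile-normalized log2 fold change under values as deposited, upper-quartile scaling, edgeR and DESeq2, in that order, for Serpinc1 (0.28, 0.29, 0.28, 0.28), Plg (0.12, 0.14, 0.13, 0.12), Serpinf1 (0.067, 0.085, 0.073, 0.068), C9 (0.037, 0.054, 0.031, 0.027) and Cfb (0.021, 0.039, 0.024, 0.019). Without the libraries numbered 2 and 8, Serpinc1 was 0.069 and Plg 0.047, and as deposited C1r was 0.042, C9 -0.006 and Serpina3n 0.024. Leaving out each library moved Serpinc1 between -0.05 and 0.009, Proc between -0.25 and 0.011 and, as deposited, Cfb between -0.015 and 0.061. The F5 and F10 correlation in SPI-fed rats was 0.173 as deposited and 0.636 without the 2 libraries farthest from the F5 median. These are changes of scale or fewer libraries, and a further cause was not tested. The limits are the low counts of C1qc and C7 and the unsettled scale of genes above 10000 normalized counts.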

Other observations

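Gene pairs that lie side by side in GRCr8 had the following log2 fold changes, after quantile normalization and then as deposited. C2 had -0.32 and -0.18, and Cfb, its direct neighbour, had -0.24 and 0.02. Serpinf1 had -0.19 and 0.07, and its neighbour Serpinf2 had -0.22 and -0.18. Both pairs thus shared a sign after quantile normalization and differed in sign as deposited. The neighbours F7 and F10 had 0.21 and 0.03 after quantile normalization and 0.26 each as deposited. C6 and C7, with 1 gene between them, had -0.20 and -0.90, then -0.25 and -0.97 as deposited. Serpinb1a and its neighbour Serpinb6b differed in sign on both scales, at -0.63 and 0.31, then -0.66 and 0.25. C1r and C1s had -0.302 and -0.295, then -0.063 and -0.044. F11 and Klkb1 had -0.175 and -0.014, then -0.185 and -0.061.

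The spread over rats differed widely between the genes. In SPI-fed rats the SD on the quantile-normalized log2 scale was 0.05 for F10, 0.07 for Serpinc1 and 0.08 for Cfb, and it was 0.65 for Klkb1 and 0.56 for Proc. In CAS-fed rats it was 0.10 for F10, 0.15 for Serpinc1 and 0.23 for Cfb, and it was 0.77 for Serpinb6b. Over the 16 libraries F10 and Serpinc1 took 8 distinct values on that scale and Cfb 10. As deposited the SD in SPI-fed and then CAS-fed rats was 0.098 and 0.101 for F10, and 0.126 and 0.141 for Cfb. For Serpinc1 it was larger in SPI-fed rats there, at 0.125 and 0.083. After quantile normalization the SD was larger in CAS-fed than in SPI-fed rats for 27 of 43 genes (62.8%), against 53.6% of all genes tested. Among genes with a mean of at least 10000 normalized counts the share was 70.6% of these genes and 72.6% of all.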
